A study of Mus musculus with 25 samples.

Results

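Spi1, Cebpa, Cebpb, Cebpd, Maf, Mitf, Tfec, Runx1 and Mef2c encode transcription factors that specify macrophages or set their activation. These 9 genes were taken by their symbols from the 24411 gene symbols counted in mouse macrophages under polarizing stimuli. The series holds 25 samples in 9 groups, profiled by directional RNA sequencing after removal of ribosomal RNA, although the labels name the molecule polyA RNA. The 21 bone marrow-derived macrophage samples (BMDMs) came from C57BL/6 mice and were differentiated for 4 days with 25 ng/ml recombinant M-CSF, the cytokine that drives monocytes to become macrophages. Control BMDMs (M0) were labelled as cultured for 4 h. M1 polarization used IFN-γ at 100 U/ml together with LPS at 100 ng/ml for 1, 4, 12 or 24 h, as the labels put it. The study's methods call the same samples IFN-γ-primed, without giving the length of priming, so whether IFN-γ came before LPS is not settled here. M2 polarization used IL-4 or IL-13, each at 10 ng/ml, for 12 h. Each of these 7 BMDM groups had 3 samples. RAW264.7, a mouse macrophage line that was transformed with Abelson leukemia virus, derived from Balb/c mice and grown in RPMI rather than DMEM, gave 2 control samples and 2 samples treated for 4 h with 100 ng/ml LPS, without IFN-γ. BMDMs are a mixed primary culture and RAW264.7 is a tumour line, so the cell types differ in more than treatment. The study's methods describe the BMDM samples of a condition as biological replicates on independent RNA, and neither they nor the labels say whether these came from separate mice or cultures, so the p-values measure the spread between these samples.

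PU.1, the product of Spi1, is an ETS-family factor that binds most macrophage enhancers together with C/EBP leucine zipper proteins, and the dose of these factors helps to choose between macrophage and granulocyte fates. RUNX1 acts earlier, in blood stem and progenitor cells, and is known to act on the Spi1 and Csf1r genes. c-MAF, MITF, TFEC and MEF2C modulate the differentiated cell: c-MAF is known for activating Il10, the MITF family for lysosomal and osteoclast genes, and MEF2C for myeloid and B-cell programmes.

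All 9 genes lie on separate loci of the mouse genome (GRCm38/mm10, GENCODE M21) and code for protein. Spi1 lies on chromosome 2 at 91082390-91115756 on the plus strand, with 5 exons. The C/EBP genes have 1 exon each: Cebpa at chromosome 7, 35119293-35121928, Cebpb at chromosome 2, 167688915-167690418, and Cebpd at chromosome 16, 15887286-15891031, all on the plus strand. Maf spans chromosome 8, 115682942-115707794, on the minus strand. Mitf spans chromosome 6, 97807052-98021349, on the plus strand, and Tfec, on the same chromosome at 16833373-16898441, on the minus strand. Runx1 spans chromosome 16, 92601466-92826149, on the minus strand, and Mef2c chromosome 13, 83504034-83667080, on the plus strand. Counts were made per gene, so the alternative starts of Mitf, Runx1 and Mef2c were summed.

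The 250 bases before the RefSeq start are shown for Cebpa, Cebpb and Tfec. They were chosen because Cebpa and Tfec had the widest ranges of expression among the 9 genes over BMDM groups and Cebpb moved against Cebpa. The sequences are from RefSeq (GRCm38.p6), 5′ to 3′ on the coding strand, at chr7:35119043-35119292 (plus), chr2:167688665-167688914 (plus) and chr6:16898442-16898691 (minus). Capitals mark matches to any of 10 short words, searched on both strands: GAGGAA (ETS factors such as PU.1), TTNNGNAA (C/EBP), GGGNNNTTC (NF-κB), TTCNNNGAA (the GAS element of STATs), TGACGTCA (CRE), TGANTCA (AP-1), CATGTG (M-box of the MITF family), TGTGGT (RUNX), TANNNNTAG (MEF2) and TGCTGA (the core of a MAF site).
Cebpa: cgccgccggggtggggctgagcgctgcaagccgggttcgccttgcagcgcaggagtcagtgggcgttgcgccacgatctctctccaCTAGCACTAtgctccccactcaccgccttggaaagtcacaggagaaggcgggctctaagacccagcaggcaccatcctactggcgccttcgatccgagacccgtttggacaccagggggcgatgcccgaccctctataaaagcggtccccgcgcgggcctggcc
Cebpb: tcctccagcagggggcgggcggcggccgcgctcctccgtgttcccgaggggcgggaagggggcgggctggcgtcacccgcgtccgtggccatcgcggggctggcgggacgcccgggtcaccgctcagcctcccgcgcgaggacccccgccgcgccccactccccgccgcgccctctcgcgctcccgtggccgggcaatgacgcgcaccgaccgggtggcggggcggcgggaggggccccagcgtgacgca
Tfec: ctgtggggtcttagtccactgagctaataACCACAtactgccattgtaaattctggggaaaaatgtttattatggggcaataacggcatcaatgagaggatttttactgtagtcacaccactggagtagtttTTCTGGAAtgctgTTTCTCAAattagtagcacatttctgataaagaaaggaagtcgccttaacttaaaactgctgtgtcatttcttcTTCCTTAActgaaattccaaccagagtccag
The Cebpa window held a single match, to the MEF2 word, 164 to 156 bases before the start, and had a GC content of 66.4%. No word matched in the Cebpb window, whose GC content was 81.6%. The Tfec window, with 39.2% GC, held 3 matches to the C/EBP word, at 118 to 111, 105 to 98 and 31 to 24 bases before the start, and 1 to the RUNX word at 221 to 216 bases, none of them overlapping. Of 32851 RefSeq windows of this length, 36.8% held the C/EBP word, 14.05% the RUNX word and 19.0% the MEF2 word. RefSeq windows matched 6 of the 9 genes. These matches describe letters only and show no binding.

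Sense-strand counts summed to between 2378639 and 3357300 per sample. Between 20.1 and 39.8% of them fell on Rn45s, the ribosomal precursor, which was left out. The remaining 1502618 to 2532496 counts were expressed as CPM (counts scaled to a common library size) after TMM scaling, which corrects for differences in RNA composition. A count of 3 then equalled between 1.18 and 1.997 CPM. All 9 genes passed the filter on low counts in every comparison, and a gene was called higher or lower at an edgeR quasi-likelihood adjusted p of at most 0.01. All 9 macrophage markers were expressed in every BMDM group, with a sum of 22901.8 to 37120 CPM per sample, against 6992 to 8114 CPM in RAW264.7, where Mertk was at 0. The sum of 9 neutrophil markers was 13.6 to 24.0 CPM in control BMDMs and 37.3 to 52.5 CPM at 4 h of IFN-γ and LPS, mainly S100a8, with Elane and Mpo at 0 in both. The sum of 5 dendritic cell markers was at most 0.542 CPM in control BMDMs, 5.31 to 11.5 CPM at 4 h, 13.3 to 25.3 CPM at 12 h and 17.4 to 21.1 CPM at 24 h, mainly Ccr7, with Flt3 and Siglech at 0. Fibroblast markers summed to 52.4 to 109 CPM over all BMDMs and to 0 in RAW264.7. Markers of B cells, T and NK cells, mast cells and erythroid cells summed to at most 3.33 CPM in any sample. The part of these small fractions in the results was not tested. In bulk RNA, fewer cells of a type and less RNA per cell cannot be told apart.

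**Figure D1:**
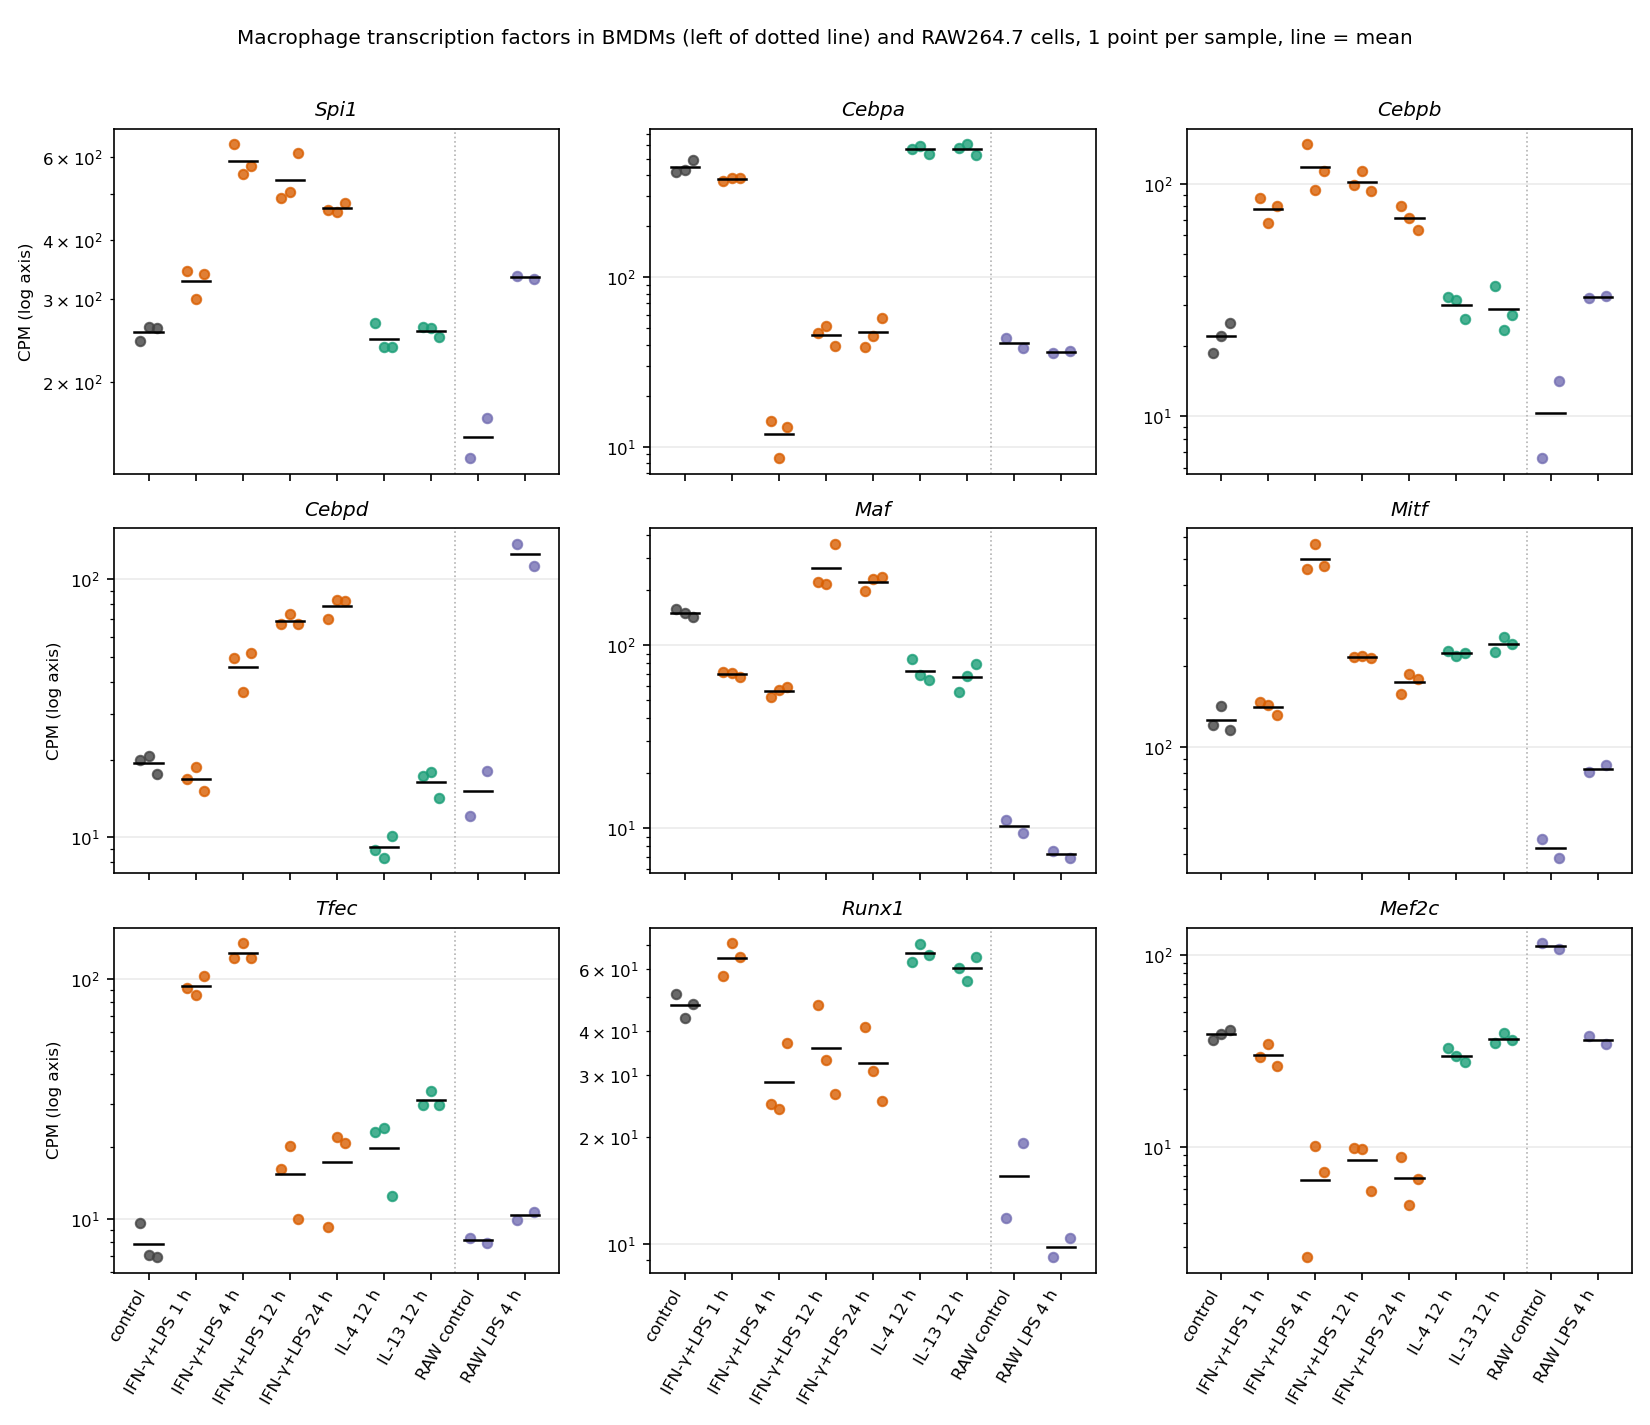
CPM of each gene in each sample (log axis, points) with the group mean (line), for 7 BMDM groups of 3 samples and 2 RAW264.7 groups of 2. Cebpa sits at 8.55 to 14.2 CPM in the 4 h samples and above 420 CPM in every control BMDM sample, while Spi1 and Mitf are highest at 4 h.

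IFN-γ with LPS changed 4 of the 9 genes at 1 h and all 9 at 4 h. At 1 h, 3 were higher (Spi1, Cebpb and Tfec) and 1 lower (Maf), against 14.7% of all 9568 genes tested called higher and 11.3% lower. At 4 h, 5 were higher (Spi1, Cebpb, Cebpd, Mitf and Tfec) and 4 lower (Cebpa, Maf, Runx1 and Mef2c), against 26% and 25.6% of all genes. At 12 h, 5 were higher and 2 lower, against 23.9% and 23.4%. At 24 h, 6 were higher and 3 lower, against 23.9% and 21.3%. The median log2 fold change of the 9 genes was 0.13, 1.15, 0.77 and 0.56 at 1, 4, 12 and 24 h, and that of all genes tested lay between -0.075 and 0.019. Higher calls made up 56.6, 50.4, 50.6 and 52.8% of all calls at these times, and 35.6, 24.3, 31.1 and 36.0% without TMM scaling, where the median of all genes at 4 h was -0.605. None of the calls on the 9 genes changed its sign without the scaling, and calls lost or gained without it are given with each gene. Without it, still called at 4 h, the log2 fold changes of Spi1, Cebpd and Runx1 were 0.62, 0.65 and -1.31, against 1.15, 1.18 and -0.78 with it, and those of Maf and Mitf at 12 h were 0.46 and 0.42 against 0.77 and 0.73. These comparisons share the same 3 control samples, and since these were labelled as cultured for 4 h, treatment and culture time cannot be told apart at 1, 12 and 24 h. From 1 to 4 h, 4 genes rose and 3 fell, against 19.8% and 19.1% of all genes. From 4 to 12 h, 3 rose and 2 fell, against 16.7% and 19.2%. From 12 to 24 h only Cebpb passed the test, as a fall, against 5.31% of all genes called higher and 8.9% lower. The higher share of all calls in these steps was 51.0, 46.4 and 37.4%, and 27.0, 65.6 and 52.2% without TMM scaling.

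**Figure D2:**
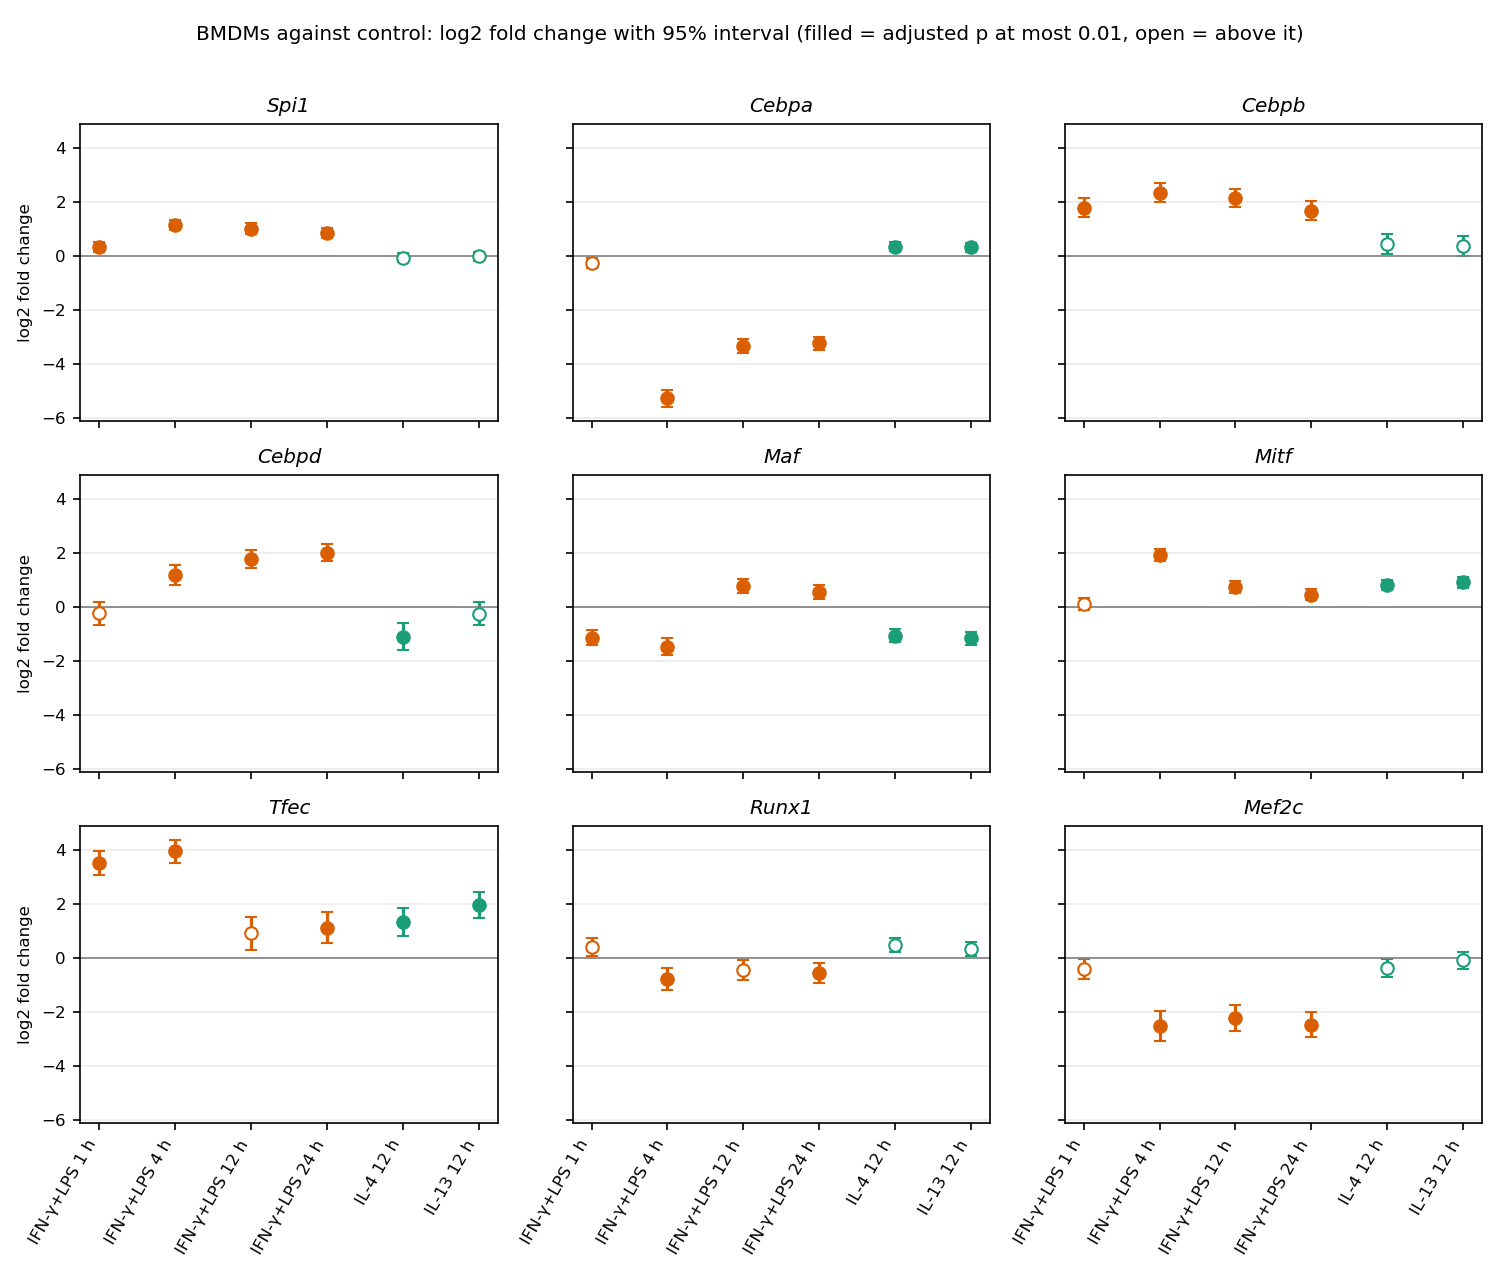
Log2 fold change against control BMDMs with its 95% confidence interval, for 4 times of IFN-γ and LPS (orange) and 12 h of IL-4 or IL-13 (green), where filled points are called. Cebpa falls to -5.28 at 4 h and Tfec rises to 3.96, while Maf lies below 0 at 1 and 4 h and above 0 at 12 and 24 h.

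PU.1 is the ETS factor whose level sets myeloid identity. Its gene Spi1 stood at 244, 261 and 259.7 CPM in the 3 control samples. After IFN-γ and LPS it was 344, 299.9 and 339 CPM at 1 h, and 638, 552 and 575 CPM at 4 h. It was then 489.7, 505 and 612 CPM at 12 h and 463, 459 and 478 CPM at 24 h. No sample of these 4 times overlapped the controls, and the 4 h and 12 h samples overlapped each other. Spi1 was 2.21-fold higher at 4 h (log2 1.15 ± 0.09 SE, edgeR adjusted p = 6.42e-15), 2.03-fold at 12 h and 1.82-fold at 24 h (adjusted p = 3.33e-11, edgeR). The rise at 1 h was small, 1.26-fold (log2 0.33 ± 0.09 SE, edgeR adjusted p = 0.00477). It was not called without control sample 1 (adjusted p = 0.0285), control sample 3 (0.0118), 1 h sample 1 (0.0295) or 1 h sample 3 (0.0210), nor without TMM scaling (log2 0.14). Per kilobase of exon, Spi1 was the most abundant of the 9 transcripts at 4 h, at 289 CPM per kb.

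Cebpa, which encodes C/EBPα, a factor required for granulocyte and monocyte progenitors, had the deepest fall. Controls had 421, 427 and 491 CPM and the 1 h samples 370.5, 385 and 385 CPM, so both sets lay apart but the difference was not called (log2 -0.26 ± 0.10 SE, edgeR adjusted p = 0.0323). At 4 h the 3 samples had 14.2, 8.55 and 13.1 CPM, from 43 counts in all. This was a 39.0-fold fall (log2 -5.28 ± 0.16 SE, edgeR adjusted p = 3.01e-31). Cebpa then rose 3.87-fold between 4 and 12 h (edgeR adjusted p = 2.14e-10), to 46.8, 51.4 and 39.4 CPM, and stood at 38.6, 45.2 and 57.7 CPM at 24 h. Samples at 12 and 24 h overlapped, and the level was still 10.1-fold and 9.42-fold below control (edgeR adjusted p = 5.61e-28 and 4.14e-28). Without TMM scaling the 1 h fall was called (log2 -0.45, adjusted p = 2.00e-04).

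Cebpb encodes C/EBPβ, a factor that activates many cytokine genes. It had 18.8, 22.2 and 25.1 CPM in controls and 86.7, 67.6 and 80.4 CPM at 1 h, a 3.48-fold rise (log2 1.80 ± 0.17 SE, edgeR adjusted p = 3.24e-12). The 4 h samples had 148, 94.0 and 113 CPM, 5.12-fold above control. The 12 h samples had 99.3, 113 and 93.6 CPM and the 24 h samples 80.6, 71.1 and 63.2 CPM. All 12 treated samples lay above all controls, and those at 4 and 12 h overlapped. The step from 1 to 4 h was called (log2 0.56 ± 0.14 SE, edgeR adjusted p = 0.000883) but not without 1 h sample 2 (0.48, adjusted p = 0.0102), without 4 h sample 1 (0.38, adjusted p = 0.0331) or without TMM scaling (0.22). The fall from 12 to 24 h was 1.38-fold (edgeR adjusted p = 0.00889). DESeq2 did not call it (adjusted p = 0.0145), nor did the edgeR fits without control sample 2, 1 h sample 1 or 3, 4 h sample 3, 12 h sample 1 or 2, or 24 h sample 2 or 3, with adjusted p from 0.0104 to 0.0736. Without TMM scaling it was also not called (log2 -0.39, adjusted p = 0.0431).

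Cebpd encodes C/EBPδ, an acute-phase relative of C/EBPβ, and rose later. The 1 h samples had 16.8, 18.7 and 15.2 CPM and overlapped the controls at 19.8, 20.6 and 17.6 CPM. It reached 49.6, 36.5 and 51.7 CPM at 4 h, 67.0, 73.5 and 67.1 CPM at 12 h and 70.4, 83.5 and 82.1 CPM at 24 h. All samples from 4 h on lay above the controls. The rise was 2.27-fold at 4 h (log2 1.18 ± 0.18 SE, edgeR adjusted p = 2.92e-07) and 4.04-fold at 24 h (log2 2.01 ± 0.16 SE, edgeR adjusted p = 8.57e-16). Its step from 4 to 12 h (log2 0.60, edgeR adjusted p = 0.000887) was not called without 4 h sample 2 (0.44, adjusted p = 0.0263).

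The balance among Cebpa, Cebpb and Cebpd shifted from Cebpa to Cebpb. Levels were set against exon length so that these genes can be compared, and other C/EBP relatives were left out of the sum. In control BMDMs, Cebpa made up 89.5% ± 0.57 (SD, n = 3) of their summed CPM per kb, Cebpb 7.70% and Cebpd 2.75%. At 1 h the share of Cebpb was 25.8%. At 4 h it was 82.3% ± 2.07, with Cebpa at 4.75% and Cebpd at 12.97%. At 24 h Cebpb had 55.0%, Cebpd 24.3% and Cebpa 20.8%. The sum itself was 189.8 ± 16.4 CPM per kb in controls, 201 at 1 h, 95.5 ± 20.8 at 4 h and 86.6 at 24 h. Within single samples the ratio of Cebpb to Cebpa reads ran from 0.0446 to 0.0521 in controls, from 0.175 to 0.234 at 1 h and from 8.62 to 11 at 4 h, with no overlap between groups.

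**Figure D3:**
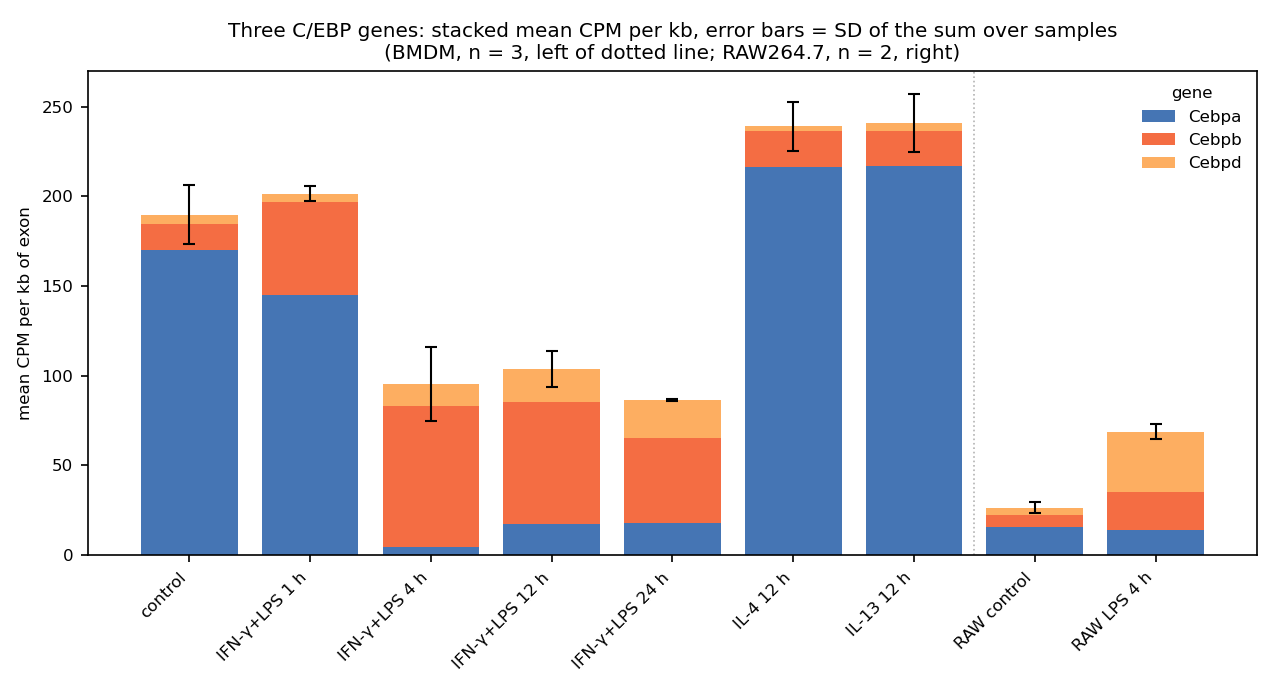
Mean CPM per kb of exon of Cebpa, Cebpb and Cebpd, stacked from 0, with the SD of their sum over samples (3 per BMDM group, 2 per RAW264.7 group). Cebpa fills most of the control, IL-4 and IL-13 columns, and Cebpb 82.3% of the 4 h column.

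Maf encodes c-MAF, a large MAF leucine zipper protein that activates Il10. It moved in both directions. From 158, 150.3 and 142 CPM in controls it went to 71.6, 70.8 and 66.8 CPM at 1 h and 52.3, 56.7 and 59.1 CPM at 4 h. It was above control at 12 h, with 222, 216 and 357 CPM, and at 24 h, with 198, 231 and 236 CPM. No treated sample overlapped the controls. Maf was 2.20-fold lower at 1 h (log2 -1.14 ± 0.14 SE, edgeR adjusted p = 1.53e-08) and 2.78-fold lower at 4 h. The step between them was not called (log2 -0.34, edgeR adjusted p = 0.0982), but was without TMM scaling (-0.68, adjusted p = 0.000389). Maf was then 4.75-fold higher at 12 h than at 4 h (edgeR adjusted p = 1.28e-15). Against control it was 1.71-fold higher at 12 h (edgeR adjusted p = 1.28e-06) and 1.47-fold at 24 h (adjusted p = 0.000196), the latter not called without TMM scaling (log2 0.33, adjusted p = 0.0136).

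MITF and TFEC are basic helix-loop-helix zipper proteins of the MiT/TFE family, and TFEC is made largely by macrophages and osteoclasts. Mitf peaked at 4 h. Controls had 120.2, 142 and 115 CPM, overlapping the 1 h samples at 147, 144 and 131 CPM. The 4 h samples had 459, 567 and 468 CPM, 3.81-fold above control (log2 1.93 ± 0.10 SE, edgeR adjusted p = 1.76e-21). By 12 h the level was 215, 217 and 214 CPM, 2.30-fold below 4 h (edgeR adjusted p = 3.82e-14) and 1.66-fold above control. At 24 h it was 156, 186 and 179 CPM, 1.38-fold above control (edgeR adjusted p = 0.000266), a difference not called without TMM scaling (log2 0.24, adjusted p = 0.0493).

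Tfec had the largest rise of the 9 genes in these fits. It had only 9.66, 7.05 and 6.95 CPM in controls, from 44 counts in all, and 91.2, 85.6 and 103 CPM at 1 h. This 11.5-fold rise (log2 3.53 ± 0.22 SE, edgeR adjusted p = 4.54e-18) came at a time when Mitf was not called (log2 0.13, 95% confidence interval -0.10 to 0.35). The 4 h samples reached 122, 141 and 122 CPM, 15.5-fold above control (edgeR adjusted p = 1.75e-20). Tfec then fell 8.30-fold by 12 h (edgeR adjusted p = 2.16e-17), to 16.2, 20.2 and 10.0 CPM, and had 9.29, 21.9 and 20.6 CPM at 24 h, where 1 sample lay within the controls. The 24 h difference was called (log2 1.13 ± 0.28 SE, edgeR adjusted p = 0.000784). The 12 h one was not (log2 0.90 ± 0.31 SE, edgeR adjusted p = 0.0107), but it was called by DESeq2 (adjusted p = 0.00746) and by edgeR without 4 h sample 2 (0.00944), 12 h sample 3 (log2 1.17, adjusted p = 0.000954) or 24 h sample 1, 2 or 3 (0.00355, 0.00805 and 0.00888). Likewise the step from 1 to 4 h (log2 0.43, edgeR adjusted p = 0.0110) was called without 1 h sample 3, 12 h sample 1, 2 or 3 or 24 h sample 1, 2 or 3, with adjusted p from 0.00269 to 0.00992.

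Runx1 encodes the runt-domain factor RUNX1, which founds the blood lineage, and had the narrowest range of group means in BMDMs. It had 51.0, 43.4 and 47.6 CPM in controls and 57.1, 70.8 and 64.7 CPM at 1 h, apart from the controls but not called (log2 0.40 ± 0.17 SE, edgeR adjusted p = 0.0537). At 4 h it had 24.8, 24.1 and 36.9 CPM, a 1.72-fold fall (log2 -0.78 ± 0.21 SE, edgeR adjusted p = 0.00114) that was not called without 4 h sample 1 (adjusted p = 0.0125) or 4 h sample 2 (0.0173). The 12 h samples, at 47.4, 33.2 and 26.5 CPM, overlapped the controls and were not called (log2 -0.45, edgeR adjusted p = 0.0360) unless 12 h sample 1 was left out (-0.71, adjusted p = 0.00258) or TMM scaling was omitted (-0.76). At 24 h, 41.1, 30.8 and 25.3 CPM gave a called fall (log2 -0.56 ± 0.18 SE, edgeR adjusted p = 0.00740). That call was lost in DESeq2 (adjusted p = 0.0147) and without control sample 1, 2 or 3, 1 h sample 2 or 24 h sample 2 or 3, with adjusted p from 0.0102 to 0.0962.

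Mef2c encodes a MADS-box factor of myeloid and B cells. It had 35.9, 38.5 and 40.6 CPM in controls and 29.1, 34.1 and 26.3 CPM at 1 h, which was not called (log2 -0.40, edgeR adjusted p = 0.0793). It fell to 2.66, 10.1 and 7.38 CPM at 4 h, from 25 counts in all, and was 9.82, 9.75 and 5.89 CPM at 12 h and 8.80, 4.97 and 6.74 CPM at 24 h. The samples from 4 h on overlapped each other and lay below all controls. The fall was 5.76-fold at 4 h (log2 -2.53 ± 0.27 SE, edgeR adjusted p = 2.82e-11), 4.65-fold at 12 h and 5.58-fold at 24 h (edgeR adjusted p = 5.61e-13). Without TMM scaling the 1 h fall was also called (log2 -0.59, adjusted p = 0.00813).

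IL-4 for 12 h changed 5 of the 9 genes and IL-13 changed 4. With IL-4, 3 were higher (Cebpa, Mitf and Tfec) and 2 lower (Cebpd and Maf), against 4.38% and 3.25% of all 9252 genes tested. With IL-13, 3 were higher (the same genes) and 1 lower (Maf), against 5.61% and 4.49%. The control cells for both were those labelled as cultured for 4 h, so cytokine and culture time cannot be told apart. The share of Rn45s reads on the opposite strand also separated the libraries, at 0.00603 to 0.0214% in IL-4, IL-13 and 24 h samples and 0.0386 to 0.122% in control, 1, 4 and 12 h samples. Its part in these results, and in those of the 24 h samples above, was not tested.

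Tfec rose most with the M2 cytokines, to 23.0, 23.9 and 12.5 CPM with IL-4 (2.503-fold, log2 1.32 ± 0.26 SE, edgeR adjusted p = 0.000191) and 29.9, 34.3 and 29.9 CPM with IL-13 (3.90-fold, log2 1.96 ± 0.24 SE, edgeR adjusted p = 3.56e-09). Mitf rose to 228, 217 and 223 CPM with IL-4 (1.76-fold, edgeR adjusted p = 5.80e-09) and 225, 255 and 241 CPM with IL-13 (1.88-fold, edgeR adjusted p = 1.02e-10). No sample of either gene overlapped the controls. Cebpa had 572, 599 and 535 CPM with IL-4 and 576, 608 and 526 CPM with IL-13, also above all controls, but the rises were small (1.26-fold in each, edgeR adjusted p = 0.00321 and 0.00283). The IL-4 call was lost without control sample 1 (adjusted p = 0.0363), control sample 2 (0.0303) or IL-4 sample 1 (0.0191) or 2 (0.0394), and the IL-13 call without control sample 1 (0.0332), control sample 2 (0.0265) or IL-13 sample 2 (0.0349).

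Maf fell with both cytokines, to 83.8, 68.4 and 64.4 CPM with IL-4 (2.09-fold, log2 -1.06 ± 0.12 SE, edgeR adjusted p = 5.87e-10) and 55.2, 67.5 and 79.4 CPM with IL-13 (2.25-fold, edgeR adjusted p = 2.61e-11). Cebpd had 8.90, 8.34 and 10.1 CPM with IL-4, below every control sample (2.14-fold, log2 -1.10 ± 0.24 SE, edgeR adjusted p = 0.000940). That call was narrowly lost without IL-4 sample 2 (adjusted p = 0.0101) and in DESeq2 (0.0108). With IL-13 it had 17.3, 17.9 and 14.2 CPM and overlapped the controls. Spi1 did not differ from control by the test with either cytokine, at 267, 237 and 237 CPM with IL-4 (log2 -0.06, interval -0.24 to 0.12) and 261, 260.3 and 249 CPM with IL-13 (log2 -0.01, interval -0.19 to 0.17). Runx1, at 62.8, 70.6 and 65.6 CPM with IL-4, lay above all controls and just missed the threshold (log2 0.47 ± 0.13 SE, edgeR adjusted p = 0.0109), which it passed without IL-13 sample 1 (0.00505) or 3 (0.00693). With IL-13 it had 60.4, 55.2 and 64.8 CPM. Cebpb had 32.5, 31.7 and 26.2 CPM with IL-4 and 36.2, 23.5 and 27.3 CPM with IL-13, and Mef2c 32.5, 29.5 and 27.4 and then 34.5, 38.9 and 35.9 CPM, none of them called.

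IL-13 and IL-4 were compared directly in the same fit. None of the 9 genes was called by edgeR, nor by DESeq2, against 0.0865% of all genes called higher with IL-13 and 0.0216% lower. Among the 9 genes, the lowest unadjusted edgeR p was that of Cebpd (0.00166), followed by that of Tfec (0.00202). How many of all genes had values this low was not counted. Cebpd was higher with IL-13 by 0.84 on the log2 scale (interval 0.33 to 1.35, edgeR adjusted p = 0.269), and its samples did not overlap. Tfec was higher by 0.64 (interval 0.24 to 1.03, edgeR adjusted p = 0.297), also without overlap. For the others the intervals ran from -0.17 to 0.16 for Cebpa, -0.13 to 0.23 for Spi1, -0.08 to 0.29 for Mitf, -0.37 to 0.16 for Maf, -0.44 to 0.28 for Cebpb, -0.41 to 0.11 for Runx1 and -0.05 to 0.61 for Mef2c.

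M1 and M2 cells were compared at the same time, 12 h, but their libraries differed in the share of Rn45s reads on the opposite strand. It was 0.0827 to 0.122% in the 12 h samples of IFN-γ with LPS. With IL-4 it was 0.00996 to 0.0214%, and with IL-13 0.00603 to 0.0117%. Its part in this comparison was not tested. Against IL-4, IFN-γ with LPS gave 4 genes higher and 3 lower, against 22.5% and 20.6% of all 9841 genes tested. Against IL-13 it gave 4 higher and 4 lower, against 22.2% and 20.9%. Of all calls, 52.2% and 51.5% were higher in M1 cells, and 29.7% and 28.1% without TMM scaling. Spi1 (2.17-fold and 2.08-fold), Cebpb (3.37-fold and 3.52-fold), Cebpd (7.57-fold and 4.19-fold) and Maf (3.68-fold and 3.91-fold) were higher in M1 cells than with IL-4 and IL-13. Cebpa was 12.4-fold and 12.5-fold lower in M1 cells (edgeR adjusted p = 5.04e-35 and 4.34e-35), Mef2c 3.50-fold and 4.29-fold, and Runx1 1.85-fold and 1.68-fold. Tfec was 2.05-fold lower against IL-13 (edgeR adjusted p = 0.000155) and not called against IL-4 (log2 -0.38, interval -0.89 to 0.13). Mitf differed little in these fits, by -0.04 (interval -0.25 to 0.16) against IL-4 and -0.16 (interval -0.36 to 0.04) against IL-13, but was called lower in M1 cells against both without TMM scaling (-0.40 and -0.53). Spi1 against IL-13 was 1.06 on the log2 scale, and 0.68 without it.

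RAW264.7 cells at rest differed from control BMDMs in 7 of the 9 genes, 1 higher and 6 lower, against 32.9% and 34.7% of all 10269 genes tested. Mef2c was the gene that was higher, at 114 and 107 CPM, above every BMDM sample (2.82-fold over control BMDMs, edgeR adjusted p = 4.58e-20). Maf had 11.1 and 9.42 CPM (14.8-fold lower, edgeR adjusted p = 3.55e-50) and Cebpa 43.7 and 38.4 CPM (11.1-fold lower, edgeR adjusted p = 6.68e-62), overlapping the M1 BMDMs at 12 h. Spi1 had 138 and 167 CPM (1.71-fold lower, log2 -0.77, and -0.49 without TMM scaling), Mitf 45.4 and 38.8 CPM (3.04-fold lower) and Runx1 11.8 and 19.2 CPM (3.12-fold lower). Cebpb had 6.59 and 14.1 CPM (2.18-fold lower, log2 -1.12 ± 0.25 SE, edgeR adjusted p = 4.62e-05). The lower Cebpb rested on RAW264.7 control sample 1, since it was -0.65 on the log2 scale without that sample (adjusted p = 0.0405) and -1.74 without control sample 2. Cebpd, at 12.1 and 18.1 CPM, and Tfec, at 8.33 and 7.97 CPM, were not called (log2 -0.39 and 0.02). Cell type, strain and medium cannot be told apart here. The share of Rn45s reads on the opposite strand was 0.0199 to 0.0236% in RAW264.7 controls and 0.0386 to 0.0543% in control BMDMs. Its part here, and in the differences of response below, was not tested.

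LPS for 4 h called 5 of the 9 genes in RAW264.7, 4 higher and 1 lower, against 15.1% and 12.8% of all 9406 genes tested. The higher share of all calls was 54.0%, and 30.4% without TMM scaling. Cebpd rose most, from 12.1 and 18.1 to 137 and 113 CPM (8.48-fold, log2 3.08 ± 0.15 SE, edgeR adjusted p = 1.35e-86). Spi1 rose to 335 and 331 CPM (2.25-fold, edgeR adjusted p = 1.74e-40) and Mitf to 80.8 and 85.3 CPM (2.03-fold, edgeR adjusted p = 5.08e-13). Cebpb rose to 32.3 and 32.9 CPM (3.25-fold, log2 1.70). With single samples left out, the log2 rise of Cebpb ranged from 1.25 to 2.34. Mef2c fell to 37.4 and 34.3 CPM (3.01-fold, edgeR adjusted p = 1.60e-31). With 2 samples per group, treated and control samples lay apart also for the genes that were not called, so lack of overlap says little here. Its share over all genes was not counted. Cebpa had 35.8 and 36.7 CPM (log2 -0.14, interval -0.45 to 0.17), Maf 7.57 and 6.93, Tfec 9.95 and 10.7 and Runx1 9.16 and 10.4 CPM, none of them called. Cebpd then made up 48.4% of the summed CPM per kb of Cebpa, Cebpb and Cebpd, against 15.1% at rest.

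The responses of both cell types at 4 h were compared as an interaction in 1 fit, although BMDMs also received IFN-γ. The response differed for 4 of the 9 genes, 2 more positive in RAW264.7 (Cebpa and Cebpd) and 2 more negative (Mitf and Tfec), against 11.1% and 16.4% of all genes. The more positive share of all calls was 40.2%, and 70.5% without TMM scaling. The difference was 5.06 ± 0.25 SE on the log2 scale for Cebpa, which fell 39.0-fold in BMDMs and was not called in RAW264.7, where it started 11.1-fold lower (edgeR adjusted p = 3.82e-43). It was 1.82 ± 0.27 SE for Cebpd, -0.999 ± 0.18 SE for Mitf and -3.66 ± 0.39 SE for Tfec (edgeR adjusted p = 6.15e-09, 6.10e-07 and 1.45e-15). Spi1 rose 2.21-fold and 2.25-fold, with a difference of -0.07 (interval -0.34 to 0.21). Mef2c and Cebpb moved in the same direction in both, and their differences were not called (0.85, adjusted p = 0.0343, and -0.74, adjusted p = 0.0540, edgeR). That of Mef2c was called without 4 h BMDM sample 2 (1.27, adjusted p = 0.00885) and that of Cebpb without RAW264.7 control sample 1 (-1.21, adjusted p = 0.00408). The differences of Maf (0.92, edgeR adjusted p = 0.0253) and Runx1 (0.09, interval -0.58 to 0.75) were not called either. Without TMM scaling the differences of Mef2c and Maf were also called (1.28 and 1.36), and that of Mitf was -0.56.

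**Figure D4:**
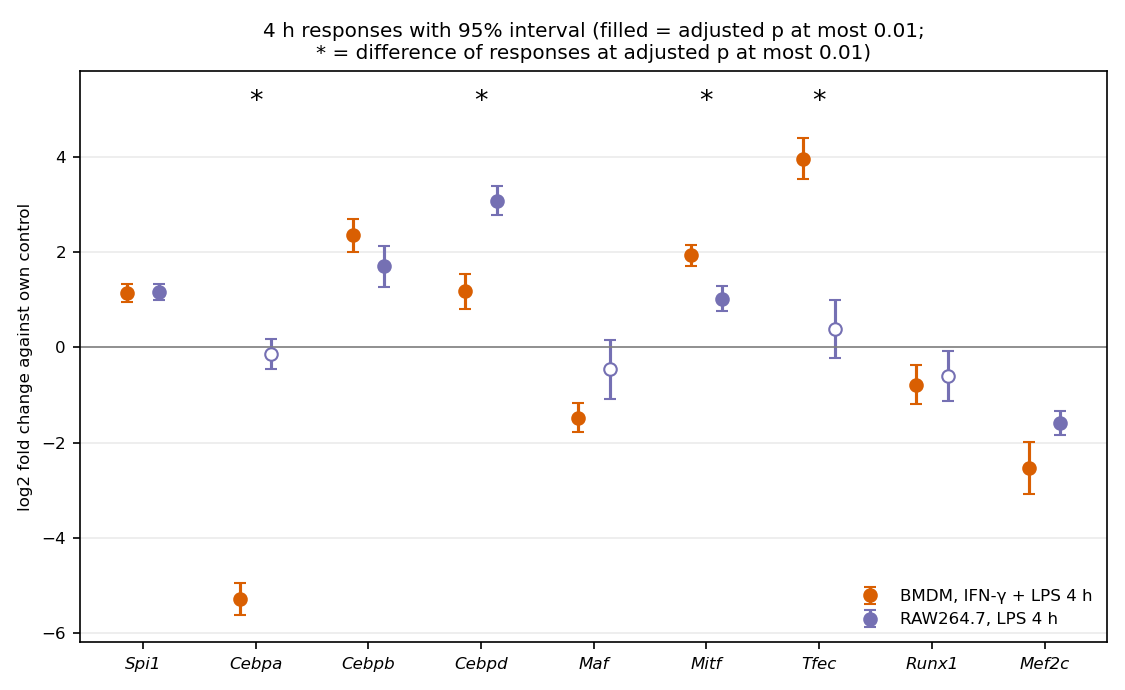
Log2 fold change with 95% interval after 4 h, in BMDMs given IFN-γ and LPS (orange) and RAW264.7 given LPS (purple), where filled points are called and asterisks mark genes whose responses differed. Both points of Spi1 lie near 1.2, whereas those of Cebpa lie at -5.28 and -0.14 and those of Tfec at 3.96 and 0.39.

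Levels of different genes were compared only per kilobase of exon. In control BMDMs the order of CPM per kb was Cebpa (169.9), Spi1 (125), Mitf (24.3), Maf (23.6), Cebpb (14.7), Mef2c (12.1), Runx1 (6.35), Cebpd (5.17) and Tfec (4.41). At 4 h of IFN-γ and LPS it was Spi1 (289), Mitf (96.2), Cebpb (78.7), Tfec (71.8), Cebpd (12.3), Maf (8.81), Cebpa (4.55), Runx1 (3.84) and Mef2c (2.12). Cebpa went from the top of the order to the third lowest place. In RAW264.7 at rest Spi1 (75.0) led, followed by Mef2c (34.9) and Cebpa (15.6). The place of Mef2c depends on its exon length: with all basic GENCODE transcripts it fell behind Runx1 in control BMDMs and behind Cebpa in RAW264.7. Over the 7 BMDM groups, the highest mean was 47.7 times the lowest for Cebpa, 16.3 times for Tfec, 8.62 for Cebpd, 5.71 for Mef2c, 5.37 for Cebpb, 4.73 for Maf, 3.96 for Mitf, 2.38 for Spi1 and 2.32 for Runx1.

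The shape of each gene's course over the 7 BMDM group means was also compared, on log2 CPM. Cebpa went with Mef2c (Pearson r = 0.967) and Runx1 (r = 0.945) and against Spi1 (r = -0.970). Among 7755 genes with at least 10 CPM, the most similar course to Spi1 was that of Gm5431 and Mndal (both r = 0.998), to Cebpa that of Gpr157 (0.999) and Rassf3 (0.995), and to Cebpb that of Pofut2 (0.998) and Gm1966 (0.995). For Cebpd they were Tm9sf4 (0.988) and Atrnl1 (0.982), for Maf Pofut1 (0.988) and Ntmt1 (0.980), and for Mitf Mob3b (0.977) and Timm10 (0.962). For Tfec they were Snhg8 (0.974) and Dnajb5 (0.971), for Runx1 Ski (0.973) and Ostm1 (0.970), and for Mef2c Usp45 (0.998) and Wdr45 (0.996). These are correlations across 7 group means that share libraries and scaling, and they describe shape alone. The genes were picked for the highest r among 7755, so a high r follows in part from the search. They differ in how far they moved: group means of Ntmt1 ran from 9.67 to 12.6 CPM and those of Gm5431 from 17.2 to 381 CPM.

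A list of 23 relatives and partners of the 9 genes was examined in the same fits, of which 20 could be tested in the time course. At 1 h, 3 were higher and 2 lower, against 14.7% and 11.3% of all genes. They were led by Maff, a small MAF protein without an activation domain, which rose from 2.87 ± 1.13 to 204 CPM (log2 6.09 ± 0.21 SE, edgeR adjusted p = 9.11e-29). At 4 h, 6 were higher and 9 lower, against 26% and 25.6% of all genes. Tfeb, a lysosomal relative of Mitf, fell from 48.6 to 3.82 CPM (log2 -3.69, edgeR adjusted p = 9.00e-16) and Fli1, an ETS factor, from 149 to 26.4 CPM, whereas Ets2 rose from 24.0 to 124 CPM and Mafk from 11.1 to 52.3 CPM. At 12 h, 6 were higher and 7 lower, against 23.9% and 23.4% of all genes. At 24 h there were 5 and 9, against 23.9% and 21.3%. Spic, the PU.1 relative of red pulp macrophages, was at 1.43 ± 0.82 CPM in controls, near the level of 3 counts, and reached 96.4 ± 11.8 CPM at 12 h (edgeR adjusted p = 3.49e-25). Mef2a fell from 249 to 81.7 CPM at 12 h. Ddit3, the stress-induced C/EBP relative, had 57.2 CPM at 24 h against 16.1 in controls.

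Of the relatives, IL-4 gave 2 higher and 1 lower of 19 tested, against 4.38% and 3.25% of all genes. IL-13 gave 3 higher and 2 lower, against 5.61% and 4.49%. Mef2a fell to 191 and 177 CPM, Ddit3 rose to 27.5 and 27.4 CPM, and Tfeb rose to 72.6 CPM with IL-13. At 12 h, 5 relatives were higher and 7 lower in M1 cells against either cytokine. The shares of all genes were 22.5% and 20.6% against IL-4 and 22.2% and 20.9% against IL-13. Of the relatives with at least 10 CPM in the higher group, Spic, Ets2 and Mafk were the most raised, and Cebpg and Tfeb were among the 3 most reduced. In RAW264.7, LPS gave 4 higher and 1 lower of 17 tested, against 15.1% and 12.8% of all genes. Ets2 went from 71.0 to 318 CPM and Fli1 from 151 to 64.2 CPM. RAW264.7 at rest had 3 relatives higher and 13 lower than control BMDMs, of 20 tested, against 32.9% and 34.7% of all genes. Ets1 and Spic were at 0 in RAW264.7 and Cebpe, the granulocyte C/EBP, was at 0 in control BMDMs and at 10.9 CPM in RAW264.7. The response differed between cell types for 7 relatives, against 27.5% of all genes. Among them were Mef2d (1.93 ± 0.26 SE, edgeR adjusted p = 5.56e-11) and Elf1 (-1.44 ± 0.18 SE, edgeR adjusted p = 1.79e-12).

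Genes of macrophage function, several of them known targets of PU.1, C/EBP or MITF-family factors, moved in both directions. Of 16, 4 were higher and 5 lower at 1 h, 6 and 8 at 4 h, 6 and 8 at 12 h and 5 and 6 at 24 h. The shares of all genes called higher and lower were 14.7% and 11.3% at 1 h and 26% and 25.6% at 4 h. They were 23.9% and 23.4% at 12 h and 23.9% and 21.3% at 24 h. Cd14, the LPS coreceptor, rose from 287 ± 25.8 to 4412 ± 332 CPM at 4 h (log2 3.89 ± 0.10 SE, edgeR adjusted p = 1.82e-34). Acp5, an osteoclast phosphatase gene bound by MITF, rose from 13.5 to 117 CPM at 4 h and stood at 82.7 CPM at 12 h, and Fcgr1, the high-affinity IgG receptor, went from 54.7 to 243 CPM at 4 h. Gpnmb, a MITF-family target in osteoclasts and melanocytes, fell from 12030 to 4026 CPM at 12 h (edgeR adjusted p = 1.76e-19), and Ctsk, another such gene, from 32.1 to 11.5 CPM at the same time, opposite to Acp5. Csf1r, the M-CSF receptor, had 665 ± 68.2 CPM in controls and 469.6 ± 51.0 at 4 h. IL-4 gave 1 higher and 5 lower, against 4.38% and 3.25% of all genes. IL-13 gave 2 higher and 4 lower, against 5.61% and 4.49%. Acp5 was the most raised (32.5 and 40.2 CPM) and Cd14 the most reduced (78.0 and 76.8 CPM) in both. In M1 cells at 12 h, 6 were higher and 6 lower than with IL-4, against 22.5% and 20.6% of all genes. Against IL-13 there were 6 and 7, against 22.2% and 20.9%. In RAW264.7 at rest, 2 were higher (Cd14 and Fcgr1) and all other 14 were lower than in control BMDMs. The shares of all genes were 32.9% and 34.7%. In RAW264.7, LPS gave 3 higher and 3 lower of 12 tested, against 15.1% and 12.8% of all genes.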

How the data were processed

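RNA from 25 samples was sequenced by the authors as paired 101-cycle reads after removal of ribosomal RNA. Per the submitters' processing notes, reads were trimmed (Trimmomatic 0.33) and aligned to mm10 with STAR 2.5.1, and the deposited files hold whole-number counts per gene symbol for each strand setting, neither normalized nor pooled. The notes also name CASAVA 1.8.2, and the authors tested differential expression with DESeq2 at its default settings. The annotation release is not given in the sources used here. Sense-strand counts were used. Between 62.7 and 69.1% of uniquely aligned reads fell on no gene, and these rows stayed out of library totals, as did Rn45s.

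Counts were tested with edgeR 4.0.16 (R 4.3.3) by robust quasi-likelihood F tests with TMM scaling and filterByExpr. Separate fits covered control and IFN-γ with LPS BMDMs (15 samples), control, IL-4 and IL-13 BMDMs (9), all BMDMs (21, for M1 against M2), RAW264.7 (4), and control and 4 h samples of both cell types (10). Adjusted p-values are Benjamini-Hochberg over all genes of a fit, SE is the log2 fold change divided by the square root of F, and the threshold was 0.01. Levels are TMM-scaled CPM over all 25 samples. Levels per kb used the exon union of GENCODE M21 transcripts with a RefSeq mRNA. The fits were tested on simulated data in which few genes changed, in both directions, and all genes had the same spread. Such data cannot show how TMM scaling performs where 51.5% of genes were called, as at 4 h. Alternatives were DESeq2 1.42.0, RLE factors, other filters, unstranded counts, Rn45s kept, 1 fit of all samples, a replicate block, a fold threshold and leaving out each sample. Omitting scaling was added after seeing the data.

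The 9 genes and the lists of relatives, macrophage genes and markers were chosen with earlier results of these data known. All 9 genes were tested and counted in every comparison. Of the relatives and macrophage genes, up to 3 of the most raised and 3 of the most reduced called genes per comparison could be named, with a mean of at least 10 CPM in the higher group, and Csf1r and the level of Spic in RAW264.7 were named after their values were seen. The values of 1 relative are not reported here. For each gene, the 2 genes with the highest correlation over BMDM group means of log2 CPM (prior count 2) were named. Opposite-strand reads made up 3.03% of the Cebpd reads and at most 0.52% for the other 8 genes.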

Additional observations from a re-analysis of the deposited data

Results flagged for a closer look

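The 4 h response of 4 of the 9 genes differed between RAW264.7 given LPS and BMDMs given IFN-γ with LPS, by the interaction term of an edgeR fit. The difference (RAW264.7 response minus BMDM response, log2) was 5.06 for Cebpa (adjusted p = 3.82e-43), 1.82 for Cebpd (6.15e-09), -0.999 for Mitf (6.10e-07) and -3.66 for Tfec (1.45e-15). The cell types, the presence of IFN-γ and the number of samples (2 against 3 per group) differed together, and their parts cannot be told apart. Every group held 2 or 3 samples, too few for a test of single outlying samples.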

How the results depend on the processing

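Each comparison's count of called genes among the 9 was recomputed under the alternatives. When the log2 fold change also had to reach 1 in size, the count was 5 in place of 9 at 24 h (24.2% of all genes tested), 0 in place of 1 from 12 to 24 h (3.8%), 3 in place of 5 with IL-4 (1.98%) and 2 in place of 4 with IL-13 (3.03%). It was 5 in place of 7 both at 12 h (27.4%) and from 1 to 4 h (23.1%). It was 3 in place of 4 at 1 h (12.3%), 8 in place of 9 at 4 h (33.7%) and 4 in place of 5 from 4 to 12 h (18.5%). For M1 cells it was 6 in place of 7 against IL-4 and 7 in place of 8 against IL-13 (25.4% in each). For resting RAW264.7 it was 6 in place of 7 (47.6%), and for the response difference 3 in place of 4 (20.2%). From 12 to 24 h the count was also 0 with DESeq2 and without TMM scaling, and 0 to 1 when single samples were left out. Leaving out single samples gave 3 to 6 with IL-4, with 3 without IL-4 replicate 2. Of 1215 log2 fold changes of single genes under other settings, 1173 kept their direction and their side of the threshold, as did 1711 of 1782 with 1 sample left out. Values that changed sign were not called in any of the fits named here. Cebpa in IL-13 against IL-4 (-0.00525) was 0.00291 with DESeq2, 0.00292 with RLE factors, 0.00127 without the filter, 0.00351 with Rn45s, 0.00234 in 1 fit of all samples and 0.0308 without scaling. Spi1 with IL-13 was 0.00806 without the filter, 0.00990 in 1 fit and 0.0303 without scaling. Also without scaling, Mitf at 1 h was -0.0655, Spi1 and Cebpb from 4 to 12 h were 0.0895 and 0.0192, and the response difference of Spi1 was 0.367. With 1 sample left out, values that changed sign ranged, from 12 to 24 h, from -0.0848 to 0.212 for Cebpa, -0.340 to 0.0387 for Maf, -0.327 to 0.151 for Runx1 and -0.0323 to 0.502 for Tfec. In IL-13 against IL-4 they ranged from -0.0581 to 0.0514 for Cebpa, -0.257 to 0.0513 for Cebpb and -0.240 to 0.0193 for Maf. They ranged from -0.0510 to 0.716 for Mef2c from 4 to 12 h, -0.0403 to 0.0152 for Spi1 with IL-13, -0.0695 to 0.179 for Tfec in resting RAW264.7 against BMDMs, and, for the response difference, -0.239 to 0.460 for Runx1 and -0.212 to 0.0673 for Spi1. Deviations of samples with the same replicate number had a mean r of 0.0215 in the time course, against -0.0108 for different numbers. There, 9 of 15 samples correlated best with their own number. In the other fits the mean r for the same number lay between -0.0158 and 0.0173. Correlations this weak cannot decide whether the numbers pair the samples. The replicate block gave 8 called genes at 12 h (main 7) and 8 from 1 to 4 h (main 7), in both through Tfec (adjusted p = 0.00955 and 0.00867), which was also called in both with RLE factors, without the filter, with Rn45s and in 1 fit of all samples, at 12 h with DESeq2 and from 1 to 4 h with unstranded counts. The block gave no other change in these counts, and -0.0243 for Tfec in resting RAW264.7. The cause of these changes was not tested. With 43 counts for Cebpa, 25 for Mef2c in the 4 h samples and 44 for Tfec in controls, depth limits the precision of these levels, and 3 counts equalled up to 1.997 CPM.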
